A study of Oryza sativa with 4 samples.

Results

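Of the 3439 transcripts listed as changed between control and senescing rice coleoptiles, 198 carried no locus ID of the MSU rice genome annotation, which was 5.76% of the list. They were chosen by the ID column alone, which held a dash for 193 of them and nothing for the other 5, so neither their level nor their direction entered the choice. They came from 195 gene models, a gene model being a set of overlapping transcripts that the authors' assembly grouped under 1 number. The remaining 3241 listed transcripts carried an ID and served as the comparison. Because neither an ID nor a name was given for the 198, each is named below by chromosome, start and end on the rice assembly IRGSP-1.0, counted as the files give them.

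The coleoptile is the sheath around the first leaf of a grass seedling. Wild type seedlings of variety PB1 grew under water, which makes the coleoptile elongate, and were then moved to air, after which it senesces. The control group was harvested at 7 days after germination (2 libraries), and the day 2 group at 9 days (2 libraries). The labels give submergence as the treatment of both groups, while the study's methods place the control harvest directly after transfer and the day 2 harvest after transfer, in air. Age, air and senescence therefore cannot be told apart in any difference below, and in whole coleoptiles neither can fewer cells of a type and less RNA per cell.

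A transcript assembled from reads can fall outside the annotated genes for several reasons that are general knowledge about plant transcriptomes. It can be a gene the annotation missed, a long non-coding RNA, a transposon RNA, an RNA read from the opposite strand of a gene, or the end of a known gene that was assembled as a separate piece. The files hold no sequence, coding prediction or strand for these transcripts, so the classes were not assigned. What the files do give is the level in each group, the position and the listed neighbours.

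Levels are in FPKM, the number of sequenced fragments corrected for transcript length and for sequencing depth, and the authors' files give 1 value per transcript for each group. Without values per library the differences below have no replicate check and no test, and the number of fragments behind a value is unknown. The list was preselected by the study for change, by a log2 fold cutoff of 2 and a p-value over its biological replicates per its methods. Its methods also name a minimum FPKM of 1 for that comparison, without saying in which group. That selection could not be repeated from these files. Where both groups were above 0, none of its transcripts differed by less than 4-fold between control and day 2. To be called higher or lower here, a transcript needed a log2 ratio of day 2 to control of 2 or more in size and an FPKM of 1 or more in at least 1 group. Of these conditions only the FPKM minimum left out listed transcripts that were above 0 in both groups. Those listed at 0 in control were kept apart, since no fold can be given against 0. The study's list took in transcripts specific to senescing coleoptiles, and its text does not say the same of those specific to control. All transcripts called lower here were above 0 at day 2, the lowest FPKM being 0.159 without an ID and 0.0815 with one. Falls to 0 are therefore missing from the counts by direction below, while rises from 0 are listed.

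Among transcripts above 0 in both groups, those without an ID were divided almost evenly between the directions. Those with an ID were more often higher in senescing coleoptiles. By the rule above 82 of the 198 were higher at day 2 (41.4%, against 57.8% with an ID and 56.8% of all listed transcripts), 83 were lower (41.9%, against 34.1% and 34.5%) and 23 were at 0 in control (11.6%, against 7.37% and 7.62%). Among those called higher or lower, 49.7% were higher without an ID and 62.9% with one. The share without an ID was the lower of the pair under each of the 7 other filters, pseudocounts and scalings tried, but its own value ranged from 34.04% to 68.9%, so which direction held the majority depended on the setting. Without any filter there were 85 higher, 89 lower and 24 at 0 in control. With those at 0 in control counted as rises, 55.1% then rose, beside 65.8% with an ID. In all, the 198 transcripts made up 4.81% of the summed control FPKM of the list and 4.89% of the summed day 2 FPKM.

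The size of the changes was close to that of transcripts with an ID in the upward direction. For those higher at day 2 the median log2 ratio was 3.33 (quartiles 2.46 and 4.38), beside 3.13 with an ID, and 12 of them (14.6%) exceeded a log2 ratio of 5, beside 14.2% with an ID. Their levels were modest, the median FPKM being 0.660 for control and 8.86 for day 2, beside 1.06 and 11.5 with an ID. In control, 50 of the 82 were under FPKM 1 (61.0%, beside 48.3% with an ID). For those lower at day 2 the median log2 ratio was -2.69 (quartiles -3.47 and -2.46), beside -2.83 with an ID. Steep falls were a smaller share than with an ID, since 3 (3.61%) passed a log2 ratio of -5, beside 9.78% with an ID. Over all 83 lower transcripts the median level was FPKM 20.9 for control and 2.56 for day 2, beside 39.1 and 4.16 with an ID.

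**Figure D1:**
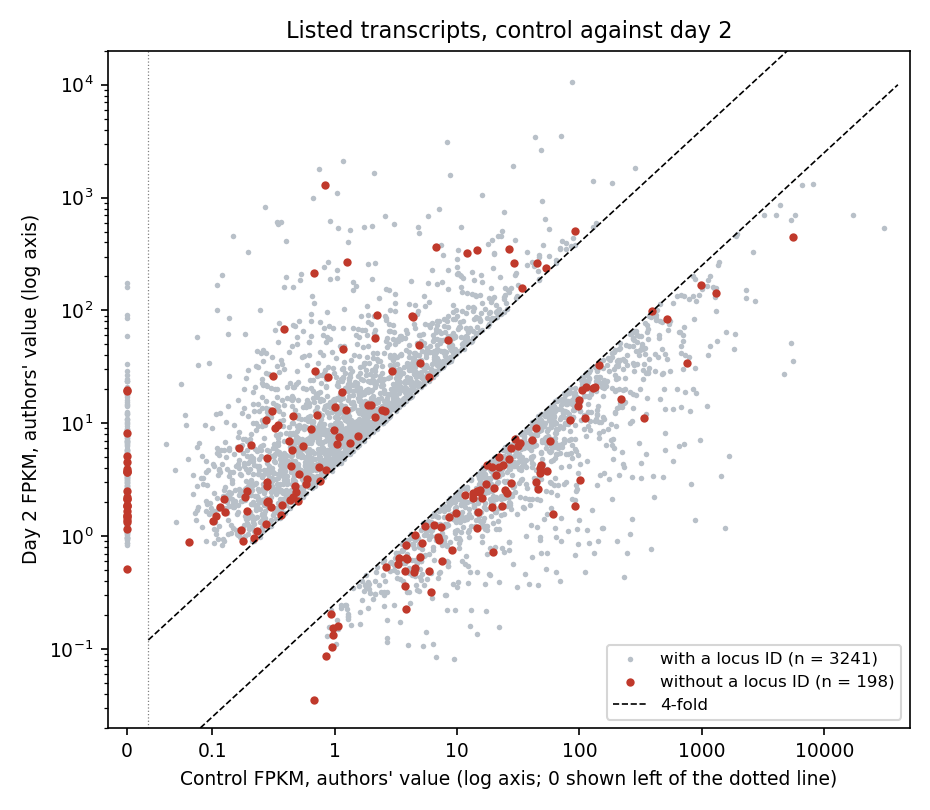
Day 2 FPKM against control FPKM of each listed transcript, on log axes, with 198 transcripts without a locus ID in red and 3241 with one in grey; each point is the authors' single value per group, and those at 0 in control stand left of the dotted line. No point above 0 in control lies between the dashed 4-fold lines because the list was selected for change, and red points occur on both sides, from below FPKM 1 to 5604.

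In each group 1 short transcript held a large share of the signal. The highest in control lay on chromosome 6 at 12359509 to 12360112, spanned 604 bases, and had an FPKM of 5604 in control and 448 at day 2 (log2 ratio -3.65). It alone was 43.3% of the control FPKM of all 198. The nearest listed locus with an ID, LOC_Os06g21410, began 6368 bases away and was lower too, at 1315 in control and 97.9 at day 2.

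The other abundant control transcripts without an ID were likewise lower at day 2. A ranking by control level in a list of 4-fold changes favours falls. Among transcripts above 0 in both groups with FPKM 100 or more in either, 15 of 27 without an ID were lower, beside 310 of 475 with one. The transcript on chromosome 2 at 29804948 to 29805545 had 1306 in control and 143 at day 2 (log2 ratio -3.19). The one on chromosome 7 at 22874256 to 22875705 had 991 in control and 169 at day 2 (log2 ratio -2.55). The one on chromosome 3 at 11030607 to 11031233 was lower still in proportion, going from 762 in control to 33.96 at day 2 (log2 ratio -4.49). Chromosome 9 held the longest listed region of the group, 17239 bases from 17851430 to 17868668, with 524 in control and 83.6 at day 2. Of the 8 highest control values the remaining 3 were on chromosomes 10, 5 and 11, with control values of 392.1, 335 and 219. The chromosome 10 transcript, at 19040461 to 19040772, stood at the edge of the list, with 97.9 at day 2 and a log2 ratio of -2.001.

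The most abundant at day 2 was almost silent in control. It lay on chromosome 1 at 25931148 to 25931730, spanned 583 bases, and had an FPKM of 0.839 in control and 1304 at day 2. Its log2 ratio of 10.60 was the largest of the group, and it made up 18.4% of the day 2 FPKM of the 198. The nearest listed locus, LOC_Os01g45670, 1878 bases away, moved the other way, with 47.9 in control and 10.4 at day 2.

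Next at day 2 was a transcript on chromosome 5 at 2174912 to 2179088, already abundant in control, with 91.1 in control and 500.4 at day 2 (log2 ratio 2.46). A transcript on chromosome 1 at 5478544 to 5479749 had 6.77 in control and 363 at day 2 (log2 ratio 5.74). One gene model on chromosome 8, at 5371809 to 5377163, was listed with a pair of transcripts that both were higher, 1 with 26.6 in control and 349 at day 2 and 1 with 14.6 and 346. They share 1 region, so their changes are not independent of each other. Also on chromosome 8, the transcript at 3337799 to 3340918 had 12.1 in control and 324 at day 2 (log2 ratio 4.75). The chromosome 6 transcript that led the control group ranked the third at day 2 in spite of its fall.

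Large ratios are easier to read where both levels are detectable, so the rises and falls named next had FPKM 10 or more in one group and 1 or more in the other, which 28 rises and 56 falls did. The largest rise there was on chromosome 5 at 7134026 to 7135550, with 1.27 in control and 269 at day 2 (log2 ratio 7.73). Of the 8 largest rises, the others not described above had smaller levels. A transcript on chromosome 11 at 693325 to 694254 had 2.23 in control and 90.3 at day 2. One on chromosome 7 at 27823830 to 27824495 had 1.16 in control and 45.3 at day 2. On chromosome 1, at 3598450 to 3601908, the values were 2.15 and 56.5, and on chromosome 2, at 3271378 to 3272038, they were 4.28 and 90.0. All 8 had log2 ratios between 4.39 and 7.73.

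The largest fall was on chromosome 8 at 4595777 to 4597522, with 91.5 in control and 1.85 at day 2 (log2 ratio -5.63). It was followed by the transcript on chromosome 2 at 29803506 to 29804207, with 60.9 in control and 1.58 at day 2 (log2 ratio -5.27). That transcript ended 740 bases before the chromosome 2 transcript of 1306 FPKM named above, and both were lower. On chromosome 5, at 24783621 to 24784068, a transcript of 448 bases had 335 in control and 11.04 at day 2 (log2 ratio -4.92). A gene model on chromosome 7, at 22385351 to 22386925, was listed with a pair of transcripts that both were lower, 1 with 54.8 in control and 3.79 at day 2 and 1 with 19.5 and 1.81. The last model with a pair of listed transcripts, on chromosome 3 at 32628789 to 32632431, had both higher, 1.00 in control and 13.8 at day 2 for the first and 1.99 and 14.6 for the other.

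At 0 in control were 24 transcripts without an ID, and most of them stayed low at day 2. Their median day 2 FPKM was 2.13, with a range of 0.508 to 19.8, beside a median of 2.51 and a highest value of 175 with an ID. Only 4 reached FPKM 5 (16.7%, beside 28.5% with an ID). A listed 0 need not mean that no RNA was present. The highest value belonged to a transcript of 212 bases on chromosome 3, at 16181721 to 16181932, with 19.8 at day 2. The next was the shortest of all 198, 152 bases on chromosome 6 at 5641334 to 5641485, with 19.3 at day 2. Then came 1000 bases on chromosome 9, at 19395897 to 19396896, with 8.28, and 214 bases on chromosome 1, at 41596821 to 41597034, with 5.12. The remaining 4 of the 8 highest had 3.71 to 4.56. Thus 3 of the 4 highest were under 500 bases, which 7 of the 24 were. FPKM is scaled by length and the tables hold no fragment counts, so the precision of these values is unknown, and any part of their length in the level was not tested.

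Listed regions without an ID were shorter than those with one, and the difference in the median was larger among transcripts lower at day 2 or at 0 in control than among the higher ones; it was not tested. The span, counted from the listed start to the listed end, had a median of 1508.5 bases without an ID and 2262 with one. It belongs to a region rather than to a transcript, since all 78 gene models with several listed transcripts give them 1 start and 1 end, and it includes introns. Spans under 1000 bases made up 80 of 198 (40.4%), beside 17.6% with an ID, and spans under 500 bases made up 21 (10.6%), beside 1.70%. The transcripts lower at day 2 had a median span of 948 bases without an ID and 1953 with one. The higher ones had 2444 and 2601 bases, which is nearly the same. Those at 0 in control had 897.5 and 1420 bases.

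Seen the other way round, short transcripts without an ID were mostly lower at day 2. Of the 67 under 1000 bases and above 0 in both groups, 19 were higher (28.4%), beside 250 of 483 with an ID (51.8%). At 1000 bases or more the shares were 61.7% (66 of 107) and 65.2% (1635 of 2509). The shortest lower transcript spanned 186 bases on chromosome 2, at 5237731 to 5237916, and had 134 in control and 20.8 at day 2. The shortest higher one spanned 232 bases on chromosome 4, at 23496014 to 23496245, and had 5.90 in control and 25.4 at day 2. At the other end, the region of 14959 bases on chromosome 3 at 12235397 to 12250355 was at 0 in control and 3.71 at day 2.

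**Figure D2:**
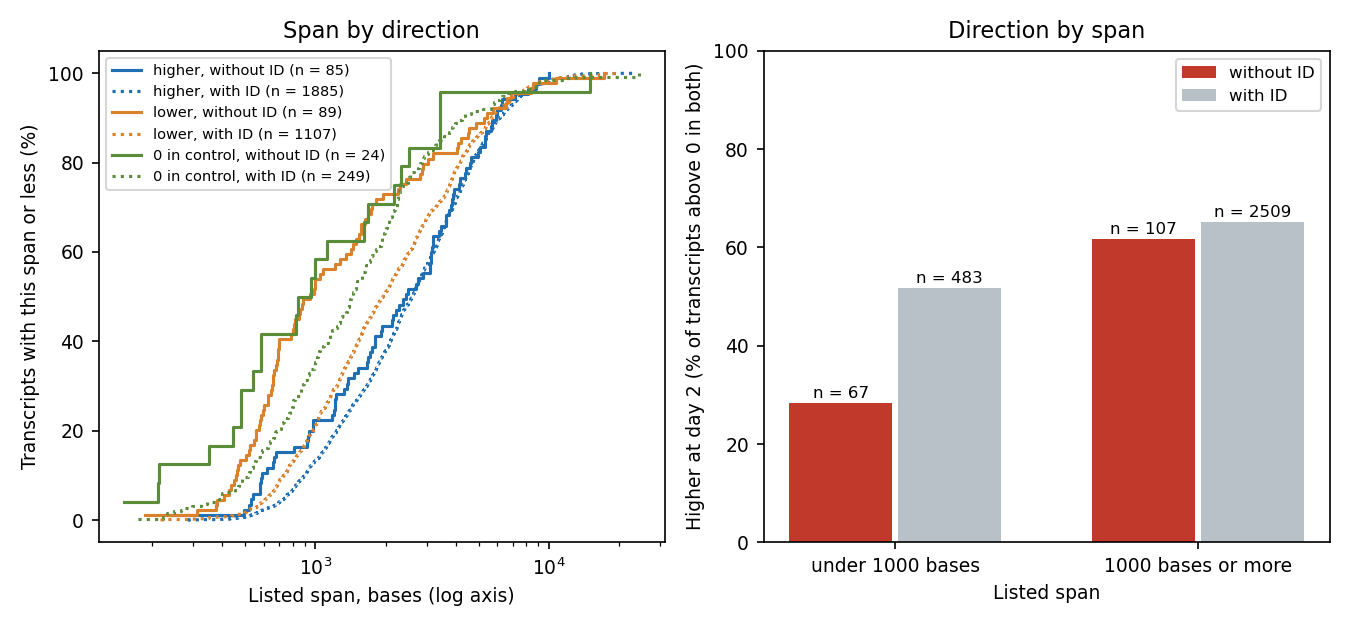
The left panel gives the percent of transcripts with a span up to the value on the log axis in bases, by direction, as solid lines without a locus ID and dotted lines with one. The right panel gives, as bars from 0, by span, the percent that was higher at day 2, leaving out transcripts at 0 in control. The solid line for lower transcripts runs left of its dotted partner over most of its length, the pair for higher transcripts runs closer together, and the gap between the bars is larger under 1000 bases (28.4% and 51.8%) than above (61.7% and 65.2%).

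All 198 lay on the 12 chromosomes, with none on an organelle or unplaced sequence, and the same held for the transcripts with an ID. The share of listed transcripts without an ID ran from 3.42% on chromosome 6 (10 of 292) to 7.78% on chromosome 7 (20 of 257). Chromosome 1 held the most, 35 of 534, of which 12 were higher, 19 lower and 4 at 0 in control. It held the most with an ID too (15.4% of those, beside 17.7% of the 198). None of the transcripts without an ID at 0 in control was on chromosome 4 or 11, which held 16 and 11 of the 198. Directions by chromosome were not counted for transcripts with an ID, so these counts have no comparison.

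Some transcripts without an ID stood beside each other, and these shared a direction. There were 6 pairs closer than 5000 bases, made of 10 transcripts, and both partners had the same direction in all 6. Several of these pairs come from the run of 4 models described next, so they are not 6 separate regions. Most loci with an ID shared the direction of a neighbour within 5000 bases too (70.7%). In 5 of the 6 pairs the gene model numbers were consecutive. A run of 4 consecutive gene models on chromosome 1, singled out here after its values were seen, covered 21343 bases from 18818270 to 18839612. In order along the chromosome they had control values of 19.7, 97.7, 24.7 and 113 and day 2 values of 0.728, 14.1, 2.56 and 21.1, so all were lower at day 2, with log2 ratios of -4.76, -2.79, -3.27 and -2.42. The region is an isolated one in this list, since the nearest listed locus with an ID was at least 511507 bases from each of them. Whether the 4 models belong to 1 transcript was not tested.

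**Figure D3:**
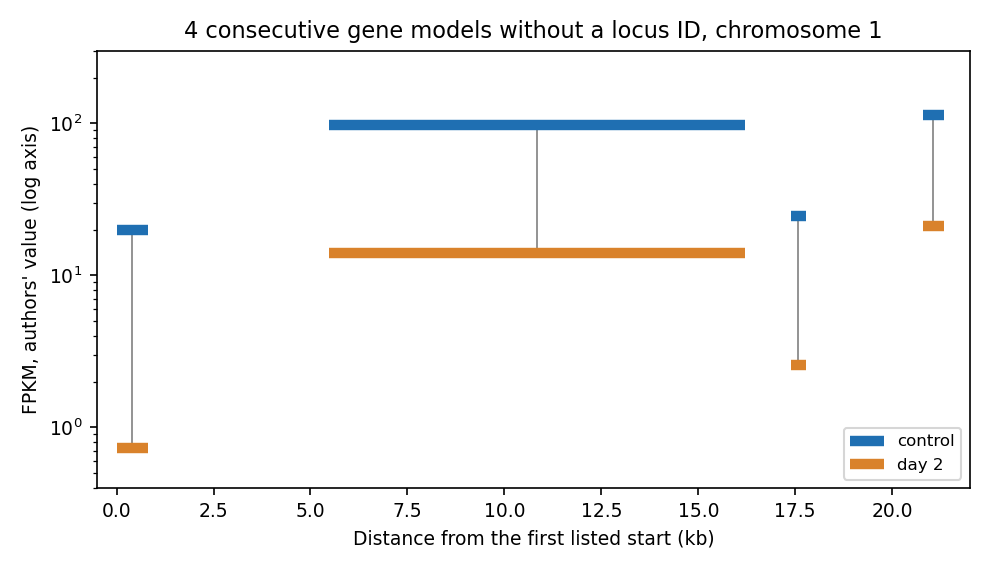
FPKM, on a log axis, of 4 consecutive gene models without a locus ID on chromosome 1, against distance in kilobases from the first listed start; each bar covers a listed span, blue for control and orange for day 2, joined by a grey line, as the authors' single value per group. The day 2 value is the lower one in every model, with control values of 19.7 to 113 and day 2 values of 0.728 to 21.1.

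The 2 further pairs of consecutive models were small. On chromosome 1 the transcript at 4665785 to 4667062 had 45.5 in control and 2.62 at day 2, and the one at 4667308 to 4669037 had 9.88 and 1.59. On chromosome 3 the transcripts at 3003412 to 3004537 and 3006356 to 3007309 were both at 0 in control, with 1.51 and 3.69 at day 2.

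Most transcripts without an ID were not near a listed locus. The median gap to the nearest listed transcript with an ID was 26635 bases, beside 27930 bases between loci with an ID and the nearest other locus. A gap of up to 5000 bases was found for 39 of the 198 (19.7%, beside 14.6% with an ID), and one of up to 1000 bases for 14 (7.07%, beside 3.76%). Because only changed transcripts are listed, the true nearest gene may be another one.

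Close neighbours shared a direction more often than distant ones, and this was also so between loci with an ID. Within 5000 bases 28 of 39 had the direction of their neighbour (71.8%), beside 70.7% with an ID. A partner at 0 in control can only count as a rise, since falls to 0 are not listed. Among the 31 pairs in which both partners were above 0 in both groups, 20 shared a direction. That count was not made with an ID. Beyond that distance 80 of 159 did (50.3%), beside 60.0% with an ID. The share was larger within reach on both sides. Of the 21 that were higher or at 0 in control, 18 had a neighbour that was too (85.7%, beside 76.5% with an ID), while of the 18 that were lower 8 had such a neighbour (44.4%, beside 38.9%) and 10 a lower one. Beyond 5000 bases the neighbour was higher or at 0 in control for 64.8% of the former (57 of 88) and 67.6% of the latter (48 of 71).

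Gene model numbers run along each chromosome in 2 separate series ordered by position. Within 5000 bases 22 transcripts belonged to the same series as their neighbour, 17 of them with consecutive numbers, and 17 to the other series. The direction was shared in 15 of 22 (68.2%) and in 13 of 17 (76.5%). With an ID the same shares were 79.9% and 58.2%. The library kit does not mark the strand, so reads of a locus and of a transcript that overlaps it cannot be told apart by strand. How well the listed values separate such partners is unknown.

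The neighbours that the study's tables describe, 33 of the 39, covered many functions, and no word group of their descriptions held more than 5 except the mixed remainder. In 2 cases the transcript without an ID had the very start and end of a listed locus from the other series. On chromosome 3, at 22538340 to 22542412, the transcript had 102 in control and 3.15 at day 2, and the locus, LOC_Os03g40540, described as a cytochrome P450, an enzyme family of oxidative metabolism, had 101 and 4.32. On chromosome 4, at 28262937 to 28265746, the transcript had 3.31 in control and 0.561 at day 2, and its partner locus, for which the study's tables give no description, had 42.5 and 6.28. Both partners were lower in each case. All 10 overlapping pairs of gene models on the whole list have identical coordinates, so these coordinates do not show how far the transcripts themselves overlap.

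The 3 shortest transcripts at 0 in control were found next to rising loci. The 152 bases on chromosome 6 began just past the end of LOC_Os06g10810, with a gap of 2 bases. This locus, placed by the study among metabolite transporters, had 1.93 in control and 27.2 at day 2. The 212 bases on chromosome 3 lay 119 bases from LOC_Os03g28140, described as a 1-phosphatidylinositol-4-phosphate 5-kinase, an enzyme of membrane phosphoinositide signalling, which had 0.408 in control and 3.41 at day 2. The 214 bases on chromosome 1 lay 322 bases from LOC_Os01g71820, a family 17 glycosyl hydrolase, a group that includes enzymes cutting beta-1,3-glucans, with 2.10 in control and 22.7 at day 2. In all 3 the gene model numbers were consecutive. Whether these are pieces of the neighbouring locus was not tested.

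Expansins, proteins that loosen plant cell walls, were the neighbours of 3 further transcripts at 0 in control. On chromosome 10 the transcript at 15751893 to 15753575 had 1.53 at day 2, and LOC_Os10g30340, 1303 bases away, was at 0 in control and 2.28 at day 2. On chromosome 2 the transcript at 9572090 to 9575502 had 1.86 at day 2, and LOC_Os02g16780, 1516 bases away, was at 0 in control and 1.69 at day 2. On chromosome 3 the transcript at 3003412 to 3004537 lay 3412 bases from LOC_Os03g06000, which had 0.303 in control and 11.3 at day 2. All values but the last were low, and this grouping was noticed after the values were seen.

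Several pairs in which both partners were above 0 in control were higher together, and in each of the 4 named here at least 1 partner was under FPKM 1 in control. The transcript on chromosome 5 at 7249979 to 7251356 had 0.674 in control and 215 at day 2 (log2 ratio 8.32). Its neighbour, 4152 bases away with the next model number, was LOC_Os05g12640, which encodes a BURP domain protein, a plant family often responsive to drought, and had 2.56 in control and 692 at day 2 (log2 ratio 8.08). On chromosome 10 the transcript at 20556395 to 20557613 had 0.382 in control and 68.0 at day 2, and LOC_Os10g38470, a glutathione S-transferase, an enzyme that joins glutathione to toxic compounds, had 1.29 and 16.2. On chromosome 12 the transcript at 9269613 to 9270109 had 0.883 in control and 25.7 at day 2, and LOC_Os12g16200, described as glutathione synthetase, which makes glutathione, had 0.511 and 80.1. A smaller joint rise was seen on chromosome 2 beside LOC_Os02g04690, a cycloartenol synthase of sterol synthesis, where the transcript at 2106367 to 2110510 had 1.04 in control and 6.50 at day 2 and the locus 0.664 and 9.50.

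In 11 pairs within reach the partners moved apart. On chromosome 3 the transcript at 4347083 to 4348127 had 44.4 in control and 3.001 at day 2, while LOC_Os03g08470, an AP2 domain protein, a class of transcription factors, had 14.3 and 87.4, at a gap of 607 bases and in the other series. The 186 bases on chromosome 2 lay 4822 bases from LOC_Os02g10070, a citrate synthase, the entry enzyme of the citric acid cycle, which had 20.8 in control and 96.0 at day 2 while the transcript was lower. On chromosome 4 the transcript at 35338919 to 35339798 had 3.86 in control and 0.629 at day 2, and LOC_Os04g59440, described as a putative chlorophyll a-b binding protein, had 4.24 and 23.7. The opposite arrangement, a higher transcript by a lower locus, was seen for LOC_Os01g02300, a receptor kinase, with 34.1 in control and 5.03 at day 2, and the region of 9054 bases on chromosome 1 at 728967 to 738020 had 0.128 and 1.65. Among the 31 pairs with a log2 ratio on both sides, 8 had a lower transcript by a higher locus and 3 the reverse.

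**Figure D4:**
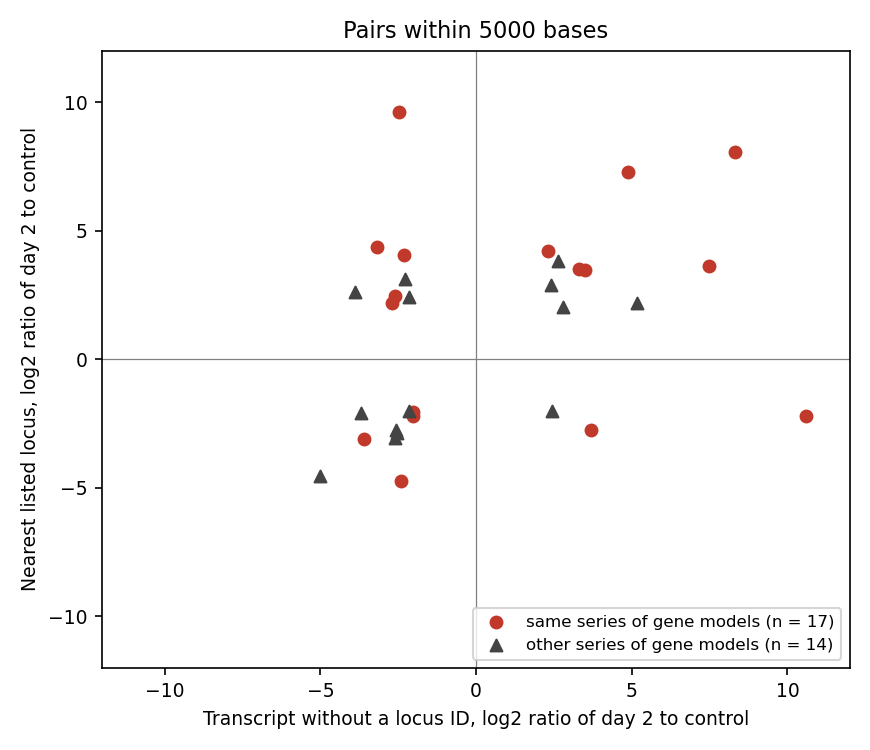
Log2 ratio of day 2 to control of the nearest listed locus against that of the transcript without a locus ID, for the 31 pairs within 5000 bases in which both were above 0 in both groups; circles are pairs from the same series of gene model numbers and triangles pairs from different series, each from the authors' single value per group. Points lie 10 in the upper right, 10 in the lower left, 8 in the upper left and 3 in the lower right, and no point lies within 2 of either axis because the list was selected for change.

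At the lower end of the scale, 10 of the 198 transcripts were under FPKM 1 in both groups (5.05%, beside 0.802% with an ID). The study's methods name a minimum FPKM of 1, and how these transcripts came to be listed is not known. The 5 with a blank in place of a dash in the ID column were low as a rule, with a highest FPKM of 1.11. Closest to the 4-fold edge of the list, after the chromosome 10 transcript of log2 ratio -2.001, were one on chromosome 1 at 22691685 to 22692492, with 29.5 in control and 7.26 at day 2, and one on chromosome 8 at 1084456 to 1086835, with 0.505 and 2.05.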

How the data were processed

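Per the study's methods, paired-end Illumina reads were quality filtered, mapped with TopHat to IRGSP-1.0 and assembled with Cufflinks; Cuffmerge joined the assemblies and Cuffdiff compared the groups. The methods state versions of TopHat and Cufflinks, which are not repeated here, but no scaling option of Cuffdiff. The deposited values are FPKM, 1 per transcript and group, which the authors derived from 2 libraries each. The study gives read totals per library, which were not used here; the tables hold no fragment counts.

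The control and day 2 tables were joined by transcript with Python 3.11.15, pandas 2.3.3 and numpy 2.4.6. Log2 ratios used no pseudocount. Chromosome numbers were assigned from the locus IDs on each sequence. Gaps run to the nearest transcript with an ID on the same chromosome, or, for one with an ID, to the nearest other locus, with a reach of 5000 bases. The gap search was tested only on simulated data in which each transcript without an ID followed a nearby locus without overlap. Overlaps, and gaps measured from loci with an ID, were not part of that check. Descriptions of neighbours come from the study's own tables. No genome of this build was used, so no sequence is shown.

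Members and lists were chosen with earlier results of these data known. Named transcripts were the 8 highest in each group, the 8 largest rises and falls (FPKM of at least 10 and 1), the 8 highest at 0 in control, the 5 longest and 5 shortest, those sharing a gene model and those overlapping a listed locus. Neighbours within reach, with their transcripts, could be named too. Alternatives were other filters, pseudocounts of 0.1 and 1, sums per gene model, other reaches and, chosen after seeing the data, scaling by summed FPKM and leaving out blank ID cells.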

Additional observations from a re-analysis of the deposited data

How the results depend on the processing

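Of 48 alternative values for 9 results, 33 stayed close to the reported value and 15 moved. A count stayed close if it was within a factor of 1.5 of the reported one. A median or percent did so if it lay inside a 95% interval that treats transcripts as independent. The near-even split between higher and lower did not hold, since the filters and scalings below moved it both ways. A pseudocount of 0.1 gave 100 higher and 82 lower (54.9% higher), but these 100 include the 23 at 0 in control, which the main count kept apart. With FPKM 1 required in both groups, 32 transcripts without an ID were higher and 34.04% of those called were higher (52.2% with an ID). With FPKM 5 in at least 1 group these were 51 and 42.1% (58.4% with an ID), the median log2 ratio of the higher ones was 3.796, and 4 were at 0 in control. With day 2 divided by 1.86, the ratio of the summed control to the summed day 2 FPKM of the list, 48 were higher, 36.6% of those called were higher (49.3% with an ID), and the median of the lower ones was -3.58. With day 2 multiplied by it, 37 were lower, 68.9% were higher (78.3% with an ID), and the median of the higher ones was 4.23. A pseudocount of 1 gave 55 higher and 58 lower, which the rule for counts still took as close, and a median of -2.56 for the lower ones. Here too, transcripts at 0 in control could be called higher. Transcripts under 4-fold are not listed, so no scaling can add calls in the direction it favours. Counting neighbours within 5000 bases only raised the share with a shared direction from 54.5% to 71.8%, and 14 lay within 1000 bases in place of 39 within 5000. No paired analysis was possible because the files give 1 value per group, and for the same reason no replicate could be left out. The tables give no fragment counts, so the error of low values is unknown.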
